A study of Mus musculus with 10 samples.

Results

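The 31 genes described here build MHC class I molecules, fill them with peptide, or help dendritic cells load them with antigen taken up from outside. They were taken by name from a fixed list, found by symbol in the GENCODE annotation of GRCm38, and followed through counts from 10 libraries. All 31 were matched among the 53379 genes of the count files, and all 31 passed the filter on low counts that left 14528 genes for testing. They comprise 8 chains of class I molecules, 8 genes of peptide transport, trimming and loading, 5 subunits of the immunoproteasome and its activator PA28, the transactivator Nlrc5, and 9 genes tied to cross-presentation.

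A class I molecule is a heavy chain held by beta-2-microglobulin (B2m). Proteasomes cut proteins into peptides, the TAP transporter moves these into the endoplasmic reticulum, and a loading complex of tapasin, calreticulin and Pdia3 fits them into the groove before the molecule travels to the surface for CD8 T cells to read. Most cells load only peptides of their own proteins, whereas dendritic cells also cross-present, that is, load class I with peptides of engulfed material. In the mouse spleen this is above all a property of the CD8-positive type 1 conventional dendritic cells (cDC1), while the CD11b-positive type 2 cells (cDC2) are known for presentation on class II.

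The libraries were made from total RNA of dendritic cells sorted from spleens of individual C57BL/6 mice at 16 weeks of age, either Atg16l1 -/- (KO) or Atg16l1 +/+ (WT). Atg16l1 encodes a subunit of the complex that attaches LC3 to membranes in autophagy. The sort kept cells high in MHC class II and CD11c, of which those with CD11b and without CD8 are labelled CD11b and those with CD8 and without CD11b are labelled CD8. The 4 groups are CD11b KO (n = 2), CD11b WT (n = 3), CD8 KO (n = 2) and CD8 WT (n = 3). The series title speaks of a model of atherogenesis, but the labels name no Cre driver, no other allele and no diet for any of the 4 groups. It is not said whether a CD11b and a CD8 library with the same number came from the same mouse.

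The subset labels went against the marker genes in 10 of 10 libraries, so all statements below are about libraries as labelled. Cd8a, which encodes the sorting marker CD8 alpha, had 448 to 578 CPM (gene counts scaled to the total of a library, with TMM factors) across CD11b libraries, against 0.905 to 5.87 CPM across CD8 libraries. Itgam, which encodes CD11b itself, had 1.58 to 2.73 CPM across CD11b libraries, against 76.1 to 103.8 CPM across CD8 libraries. The summed level of 9 cDC1 markers was 3120 to 3730 CPM in CD11b libraries, against 299 to 409 CPM in CD8 libraries, and that of 10 cDC2 markers was 123 to 148 CPM in CD11b libraries, against 1900 to 2122 CPM in CD8 libraries. Atg16l1 was at 1.73 to 3.31 CPM in the 4 KO libraries, against 13.3 to 32.7 CPM in the 6 WT libraries, so the genotype labels fit its level. Gene counts were 9467704 to 13768884 per library.

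The region before a class I gene can carry elements through which it is switched on. Those looked for here were an X2 or CRE core (TGACG), part of the SXY module used with Nlrc5, and a CCAAT box. The others were a kappaB element (GGGNNTTCC) bound by NF-kappaB and a form of the interferon response element core (GAAANNGAA). Windows of 300 bases, from 250 before to 50 after the start of each gene, came from RefSeq (GRCm38.p6) and matched 27 of the 31 members. The windows below are shown because their genes carry the differences that follow: the class I heavy chains H2-K1 at chr17:34000298-34000597 on the minus strand, H2-Q4 at chr17:35379367-35379666 on the plus strand, H2-Q6 at chr17:35424600-35424899 on the plus strand and H2-Q7 at chr17:35438905-35439204 on the plus strand, the transporter gene Tap1 at chr17:34187306-34187605 on the plus strand, and the oxidase gene Cybb at chrX:9469275-9469574 on the minus strand. Each runs 5′ to 3′ in the direction of its gene, and capitals mark a match to 1 of the 4 motifs on either strand. These genes and motifs were chosen after expression values had been seen, and no other motif set was searched.
H2-K1: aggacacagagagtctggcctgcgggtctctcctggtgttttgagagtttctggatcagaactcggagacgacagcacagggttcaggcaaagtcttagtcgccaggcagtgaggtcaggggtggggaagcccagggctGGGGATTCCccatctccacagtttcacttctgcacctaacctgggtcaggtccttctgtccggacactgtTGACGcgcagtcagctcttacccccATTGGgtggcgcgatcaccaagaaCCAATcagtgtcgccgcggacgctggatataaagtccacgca
H2-Q4: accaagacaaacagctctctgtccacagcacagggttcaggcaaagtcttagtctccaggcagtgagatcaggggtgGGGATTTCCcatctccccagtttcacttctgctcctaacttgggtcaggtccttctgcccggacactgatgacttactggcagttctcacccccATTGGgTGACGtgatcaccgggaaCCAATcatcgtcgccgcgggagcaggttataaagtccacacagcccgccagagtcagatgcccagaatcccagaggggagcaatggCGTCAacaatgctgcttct
H2-Q6: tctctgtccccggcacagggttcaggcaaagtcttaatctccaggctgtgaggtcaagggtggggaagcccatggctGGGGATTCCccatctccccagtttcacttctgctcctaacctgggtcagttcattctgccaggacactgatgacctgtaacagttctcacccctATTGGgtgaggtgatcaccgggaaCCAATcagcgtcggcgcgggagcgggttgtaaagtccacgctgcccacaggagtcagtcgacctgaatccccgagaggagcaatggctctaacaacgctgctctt
H2-Q7: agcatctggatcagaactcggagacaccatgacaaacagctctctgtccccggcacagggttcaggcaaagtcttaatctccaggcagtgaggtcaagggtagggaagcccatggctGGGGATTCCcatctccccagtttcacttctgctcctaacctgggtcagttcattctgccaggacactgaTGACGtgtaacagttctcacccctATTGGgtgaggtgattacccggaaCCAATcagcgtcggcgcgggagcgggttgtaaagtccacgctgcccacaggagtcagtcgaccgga
Tap1: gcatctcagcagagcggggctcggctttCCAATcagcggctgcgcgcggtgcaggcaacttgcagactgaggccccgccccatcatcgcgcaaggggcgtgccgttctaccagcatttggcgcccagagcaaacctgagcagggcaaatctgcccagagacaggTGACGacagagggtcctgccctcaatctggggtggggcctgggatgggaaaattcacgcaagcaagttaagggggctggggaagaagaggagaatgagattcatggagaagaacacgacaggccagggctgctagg
Cybb: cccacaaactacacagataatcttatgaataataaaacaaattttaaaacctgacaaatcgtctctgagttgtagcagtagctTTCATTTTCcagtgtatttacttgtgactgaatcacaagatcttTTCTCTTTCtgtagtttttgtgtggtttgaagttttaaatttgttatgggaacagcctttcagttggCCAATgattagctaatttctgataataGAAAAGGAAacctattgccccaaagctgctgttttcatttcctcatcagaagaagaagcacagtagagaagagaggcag

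The kappaB letters stood in 5 of the 27 member windows, those of H2-K1, H2-D1, H2-Q4, H2-Q6 and H2-Q7, against 5.72% of the 27025 promoter windows of the table. The letters of the interferon element core were found in the windows of B2m, Erap1, Psme1, H2-T23 and Cybb, against 8.57% of all windows. Cybb had 3 matches. Other forms of that element were not searched, so a window without these letters may still hold another form. TGACG occurred in 13 of the 27 (21.0% of all windows) and CCAAT in 17 (37.9%). The H2-Q6 and H2-Q7 windows were identical at 254 of 260 aligned bases (97.7%), and H2-K1 and H2-Q4 at 197 of 236 (83.5%). Tap1 and Psmb9, which encode a transporter chain and a proteasome subunit, lie head to head, and their windows on opposite strands overlapped by 275 bases. Both genes are in the TGACG and CCAAT counts, so sites in the shared bases were counted for each. With the likeness of the heavy chain windows, the motif counts are not counts of independent windows. A match to these letters is a description of the sequence and says nothing about binding.

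Comparison of the subset labels shows whether the class I pathway is set differently in the 2 splenic dendritic cell populations. The members split by role: 4 of 7 heavy chains and B2m were lower at the label CD11b in both genotypes, most of the peptide supply and loading genes were higher there by 1.27- to 2.87-fold among those that passed, and the cross-presentation genes went both ways. In KO mice, 24 of the 31 members passed the test (14 higher and 10 lower at the label CD11b), where 22.8% of all genes tested passed, 10.3% as higher and 12.5% as lower. In WT mice, 24 passed (15 higher and 9 lower), where 29.5% of all genes passed, 13.8% as higher and 15.7% as lower. The median log2 fold change of the members was 0.04 in KO and 0.13 in WT mice, beside −0.01 and 0.00 over all genes. In both genotypes 23 members passed, with the same sign in all 23. The share of all genes that passed in both genotypes, or did so with the same sign, was not counted. Tests were edgeR's quasi-likelihood test with Benjamini-Hochberg adjustment over all 14528 genes and a threshold of 0.05. In bulk samples such as these, fewer cells of a type and less RNA per cell cannot be told apart.

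**Figure D1:**
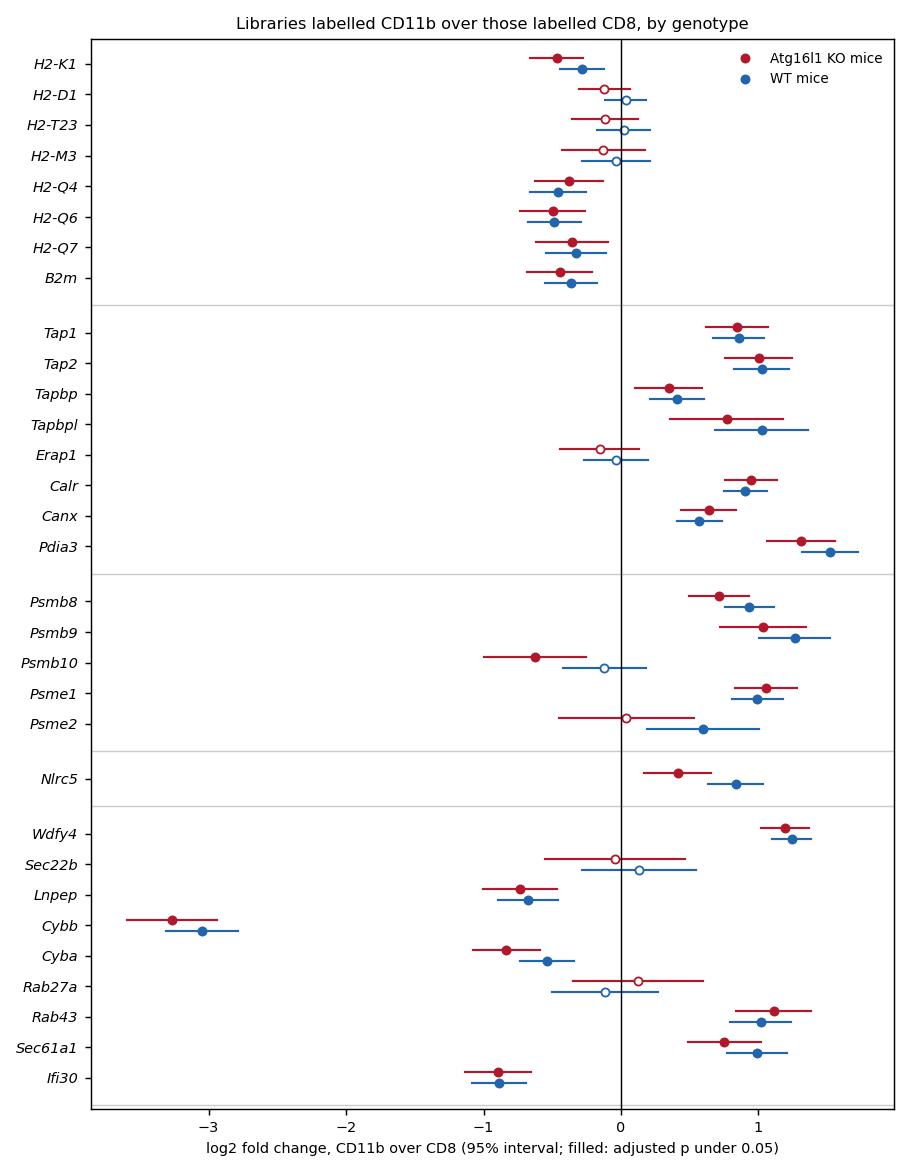
Log2 fold change of the libraries labelled CD11b over those labelled CD8 for each of the 31 members, grouped by role, with KO mice drawn above WT mice. Points are estimates, bars are 95% intervals, and filled points have an adjusted p under 0.05; the class I chains lie left of or near 0, the loading genes except Erap1 right of 0, and Cybb stands farthest left at −3.26 in KO and −3.05 in WT mice.

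Among the chains, 5 of 8 were lower at the label CD11b in both genotypes and 0 were higher. H2-K1 encodes the classical heavy chain H-2K. H2-K1 had 968 and 1076 CPM in the CD11b KO libraries, against 1002, 1063 and 970.3 CPM in CD11b WT, and 1388 and 1437 CPM in CD8 KO, against 1293, 1268 and 1130 CPM in CD8 WT. Every library labelled CD11b was below every library labelled CD8, by −0.47 ± 0.09 in KO mice and −0.28 ± 0.08 in WT mice (log2 fold change ± SE, adjusted p = 0.000528 and 0.00626). B2m encodes the light chain shared by all class I molecules. B2m had 785 and 882 CPM in the CD11b KO libraries, against 769.8, 1048 and 888 CPM in CD11b WT, and 1150 and 1123 CPM in CD8 KO, against 1135, 1236 and 1108 CPM in CD8 WT. Its groups also did not overlap between labels, with a difference of −0.45 ± 0.11 in KO mice and −0.36 ± 0.09 in WT mice (log2 fold change ± SE, adjusted p = 0.00499 and 0.00391).

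H2-Q4, H2-Q6 and H2-Q7 encode nonclassical heavy chains of the Q region. H2-Q4 had 156 and 160.1 CPM in the CD11b KO libraries, against 119.5, 138 and 134 CPM in CD11b WT, and 203 and 207 CPM in CD8 KO, against 167, 194 and 176 CPM in CD8 WT. The CD11b libraries lay below all CD8 libraries, by −0.38 ± 0.12 in KO mice and −0.46 ± 0.10 in WT mice (log2 fold change ± SE, adjusted p = 0.0243 and 0.000759). H2-Q6 had 189 and 191 CPM in the CD11b KO libraries, against 164, 175 and 166 CPM in CD11b WT, and 250.1 and 286 CPM in CD8 KO, against 254, 230.2 and 224 CPM in CD8 WT. The labels were again apart without overlap, with −0.50 ± 0.11 in KO mice and −0.49 ± 0.09 in WT mice (log2 fold change ± SE, adjusted p = 0.00213 and 0.000247). H2-Q7 had 117 and 135 CPM in the CD11b KO libraries, against 110.5, 114 and 104 CPM in CD11b WT, and 150.4 and 173 CPM in CD8 KO, against 128, 142 and 143 CPM in CD8 WT. Within each genotype the labels did not overlap, but CD11b KO 2 lay above CD8 WT 1, and the difference was −0.36 ± 0.13 in KO mice and −0.33 ± 0.10 in WT mice (log2 fold change ± SE, adjusted p = 0.0455 and 0.0191).

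H2-D1, the other classical heavy chain of this strain, did not pass the test between labels. H2-D1 had 1113 and 1244 CPM in the CD11b KO libraries, against 1243, 1227 and 1155 CPM in CD11b WT, and 1302 and 1258 CPM in CD8 KO, against 1197, 1218 and 1127 CPM in CD8 WT. Its 4 ranges overlapped one another except that both CD8 KO libraries stood above the rest, and the fitted intervals were −0.30 to 0.06 in KO and −0.12 to 0.18 in WT mice. H2-T23 encodes Qa-1, which presents leader peptides of other class I chains to NK cell receptors. It lay at 145 to 173 CPM in the 5 CD11b libraries and at 158 to 166 CPM in the 5 CD8 libraries. H2-M3, which presents formylated peptides, lay at 55.8 to 69.4 CPM in the CD11b libraries and at 61.1 to 73.4 CPM in the CD8 libraries. Neither passed the test.

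The 8 chains together took 0.349% to 0.384% of gene counts at the label CD11b, against 0.419% to 0.494% at the label CD8. B cell markers (10 of 10 with a count) summed to 262 to 599 CPM in CD11b libraries, against 363 to 2356 CPM in CD8 libraries. Red pulp macrophage markers (10 of 10) summed to 149 to 204 CPM in CD11b libraries, against 266 to 451 CPM in CD8 libraries. These markers did not all go the same way. Adgre1 lay at 0.372 to 5.33 CPM in CD11b libraries, against 88.1 to 131 CPM in CD8 libraries. Spic lay at 16.2 to 28.2 CPM, against 8.52 to 16.8 CPM, and Hmox1 at 67.3 to 86.7 CPM, against 37.4 to 86.0 CPM. The part of B cell and macrophage RNA in the differences of the chains was not tested. Leaving out 1 library ended the KO call of H2-Q6 (CD8 KO 2, adjusted p = 0.0581), of B2m (CD11b KO 1, 0.0823) and of H2-Q4 (any of the 4 KO libraries, 0.0758 to 0.121). H2-Q7 was the least firm of the 5: its WT call was lost without CD11b WT 3, CD8 WT 2 or CD8 WT 3 (0.0643 to 0.0799), and its KO call was lost without CD11b KO 1 (0.301), without CD8 KO 2 (0.351), without any of 4 WT libraries (0.0514 to 0.0630), with RLE size factors (0.0507), with no filter on low counts (0.0883) and in a fit to the compared libraries alone (0.0586). The call of H2-Q4 in KO mice was also lost with unstranded counts (0.0826).

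Some stretches of these chains also occur in other genes. Of all windows of 75 bases in the transcripts, 20.7% in H2-Q4, 21.1% in H2-Q6 and 16.95% in H2-Q7 also occurred in another gene, against 5.56% in H2-D1, 3.10% in H2-K1 and 0 in B2m. Reads that mapped to several places, 21.7% to 25.5% of all reads, were not counted, so the values of the Q genes rest on their unique parts.

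The transport and loading genes went the other way, with 7 of 8 higher at the label CD11b in both genotypes and 0 lower. Tap1 and Tap2 encode the partner chains of the peptide transporter. Tap1 had 414 and 454 CPM in the CD11b KO libraries, against 415, 409 and 424 CPM in CD11b WT, and 233 and 251 CPM in CD8 KO, against 237, 207 and 245 CPM in CD8 WT. Tap2 had 224 and 255 CPM in the CD11b KO libraries, against 215, 226 and 231 CPM in CD11b WT, and 124 and 115 CPM in CD8 KO, against 105, 110.4 and 114 CPM in CD8 WT. Neither gene's labels overlapped, and the differences were 0.84 ± 0.11 in KO mice and 0.86 ± 0.09 in WT mice (log2 fold change ± SE, adjusted p = 2.29e-06 and 5.26e-08) for Tap1. For Tap2 they were 1.00 ± 0.12 in KO mice and 1.02 ± 0.10 in WT mice (log2 fold change ± SE, adjusted p = 5.14e-07 and 9.95e-09).

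Pdia3, also called ERp57, is the oxidoreductase of the loading complex, and had the largest fold in favour of the label CD11b among the 31 members. Pdia3 had 668 and 744 CPM in the CD11b KO libraries, against 643, 852 and 759 CPM in CD11b WT, and 279.8 and 290.3 CPM in CD8 KO, against 275, 243 and 267 CPM in CD8 WT. The lowest CD11b library (643 CPM) was above the highest CD8 library (290.3 CPM), and the difference was 1.31 ± 0.12 in KO mice and 1.52 ± 0.10 in WT mice (log2 fold change ± SE, adjusted p = 8.77e-09 and 1.38e-11). Calr encodes calreticulin, the lectin chaperone that holds class I in the loading complex. Calr had 1310 and 1356 CPM in the CD11b KO libraries, against 1321, 1478 and 1304 CPM in CD11b WT, and 667 and 718 CPM in CD8 KO, against 714, 720.5 and 758 CPM in CD8 WT. Its labels did not overlap, with 0.95 ± 0.09 in KO mice and 0.90 ± 0.08 in WT mice (log2 fold change ± SE, adjusted p = 2.9e-08 and 1.26e-09). Canx encodes calnexin, which receives newly made heavy chains. Canx had 534 and 562 CPM in the CD11b KO libraries, against 549, 565 and 586 CPM in CD11b WT, and 341 and 364 CPM in CD8 KO, against 384, 376 and 384 CPM in CD8 WT. It differed by 0.64 ± 0.10 in KO mice and 0.57 ± 0.08 in WT mice (log2 fold change ± SE, adjusted p = 1.9e-05 and 3.56e-06), again with no overlap.

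Tapbp encodes tapasin, the bridge between TAP and class I. Tapbp had 398 and 474 CPM in the CD11b KO libraries, against 381, 464 and 435 CPM in CD11b WT, and 321 and 365 CPM in CD8 KO, against 334, 313 and 317 CPM in CD8 WT. Its difference was smaller, 0.35 ± 0.12 in KO mice and 0.41 ± 0.10 in WT mice (log2 fold change ± SE, adjusted p = 0.0334 and 0.00172), with the lowest CD11b library at 380.5 CPM and the highest CD8 library at 365 CPM. Tapbpl encodes the related peptide editor TAPBPR. Tapbpl had 39.8 and 40.6 CPM in the CD11b KO libraries, against 43.9, 40.1 and 40.6 CPM in CD11b WT, and 20.8 and 26.4 CPM in CD8 KO, against 22.4, 19.8 and 19.1 CPM in CD8 WT. The CD11b libraries all lay above the CD8 libraries, by 0.77 ± 0.20 in KO mice and 1.02 ± 0.16 in WT mice (log2 fold change ± SE, adjusted p = 0.00578 and 2.84e-05). Erap1, which trims peptides in the endoplasmic reticulum, lay at 78.5 to 104 CPM in the CD11b libraries and 92.5 to 109 CPM in the CD8 libraries and did not pass the test in either genotype.

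Among these 7 calls, that of Tapbp in KO mice was lost without CD11b KO 2 (log2 fold change 0.22, adjusted p = 0.330), without CD8 KO 1 (0.26, adjusted p = 0.271) and with unstranded counts (adjusted p = 0.0791), and that of Tapbpl in KO mice without CD8 KO 1 (0.61, adjusted p = 0.107). In Tapbp, 18.6% of 75-base windows were shared, mostly with genes that overlap it.

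The immunoproteasome carries the induced subunits Psmb8, Psmb9 and Psmb10 in place of the constitutive Psmb5, Psmb6 and Psmb7, which changes the peptide ends produced. Psmb8 had 499 and 501.8 CPM in the CD11b KO libraries, against 487, 508 and 552 CPM in CD11b WT, and 299.5 and 309.6 CPM in CD8 KO, against 266, 251 and 293 CPM in CD8 WT. Psmb9 had 160.2 and 148 CPM in the CD11b KO libraries, against 150.2, 157 and 176 CPM in CD11b WT, and 69.3 and 81.2 CPM in CD8 KO, against 67.3, 55.5 and 78.4 CPM in CD8 WT. Both were higher in every CD11b library than in any CD8 library: Psmb8 by 0.72 ± 0.11 in KO mice and 0.93 ± 0.09 in WT mice (log2 fold change ± SE, adjusted p = 1.34e-05 and 7.81e-09). For Psmb9 the values were 1.04 ± 0.15 in KO mice and 1.26 ± 0.12 in WT mice (log2 fold change ± SE, adjusted p = 1.16e-05 and 2.09e-08). Psme1 encodes PA28 alpha, a subunit of the ring that opens the proteasome. Psme1 had 807 and 855 CPM in the CD11b KO libraries, against 791, 940.2 and 736 CPM in CD11b WT, and 401 and 399 CPM in CD8 KO, against 391, 423 and 426 CPM in CD8 WT. Its lowest CD11b library (736 CPM) was above the highest CD8 library (426 CPM), and the difference was 1.06 ± 0.11 in KO mice and 0.99 ± 0.09 in WT mice (log2 fold change ± SE, adjusted p = 7.07e-08 and 4.32e-09).

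Psmb10 stood apart from its partners. Psmb10 had 40.77 and 33.3 CPM in the CD11b KO libraries, against 40.85, 42.2 and 44.9 CPM in CD11b WT, and 56.7 and 57.6 CPM in CD8 KO, against 53.4, 39.2 and 46.6 CPM in CD8 WT. In KO mice the CD11b libraries were below the CD8 libraries, whereas in WT mice the labels overlapped, with −0.63 ± 0.18 in KO mice and −0.12 ± 0.15 in WT mice (log2 fold change ± SE, adjusted p = 0.0119 and 0.609). Psme2 encodes PA28 beta, the partner of Psme1. Psme2 had 24.5 and 25.7 CPM in the CD11b KO libraries, against 31.3, 28.0 and 30.4 CPM in CD11b WT, and 29.9 and 18.9 CPM in CD8 KO, against 17.4, 19.9 and 21.95 CPM in CD8 WT. Here the WT labels were apart and the KO labels overlapped, with 0.04 ± 0.24 in KO mice and 0.60 ± 0.20 in WT mice (log2 fold change ± SE, adjusted p = 0.944 and 0.0229). For neither gene did the test of the difference between genotypes pass: it gave −0.51 ± 0.23 for Psmb10 (adjusted p = 0.867) and −0.56 ± 0.31 for Psme2 (adjusted p = 0.942). The KO call of Psmb10 was lost without CD11b KO 2 (−0.49, adjusted p = 0.141), CD8 KO 1 (0.0555) or CD8 KO 2 (0.0671), and the WT call of Psme2 without CD11b WT 1, CD11b WT 3, CD8 WT 1 or CD8 WT 2 (0.0508 to 0.0949). In Psme2, 22.9% of 75-base windows were shared with its copy Psme2b.

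The balance of RNA between an induced subunit and its constitutive counterpart can be given as a ratio of counts within a library, which does not depend on scaling. Such a ratio does not measure which subunits the assembled proteasome holds. Psmb9 over Psmb6 was 2.32 and 2.51 in CD11b KO, 1.82, 2.24 and 2.19 in CD11b WT, 1.16 and 1.53 in CD8 KO, and 1.28, 1.01 and 1.30 in CD8 WT. All CD11b libraries were higher than all CD8 libraries, by 0.83 on the log2 scale. Psmb10 over Psmb7 was 1.00 and 0.748 in CD11b KO, 1.04, 0.849 and 1.21 in CD11b WT, 2.24 and 1.99 in CD8 KO, and 2.28, 1.67 and 1.79 in CD8 WT. Here all CD11b libraries were lower, by 1.09 on the log2 scale (a difference of −1.09). Psmb7 itself lay at 37.1 to 49.8 CPM in CD11b libraries, against 23.4 to 28.9 CPM in CD8 libraries. The lower ratio thus also holds a higher level of the constitutive subunit. Both ratios had the smallest p that the 120 arrangements of a two-sided exact permutation test within genotype allow (p = 0.0167). After adjustment over 6 tests it became 0.05 and so was not under the threshold of 0.05. Psmb8 over Psmb5 was 73.8 and 46.0 in CD11b KO, 56.8, 153 and 47.8 in CD11b WT, 68.6 and 58.3 in CD8 KO, and 48.2, 52.3 and 75.5 in CD8 WT, with overlapping labels (difference 0.13, exact permutation p = 0.717). Psmb5 had only 41 to 131 counts per library, and 36.8% of its 75-base windows were shared with another gene. Between genotypes, at the mean over labels, the KO minus WT differences were 0.19 for Psmb9 over Psmb6 (exact permutation p = 0.16), −0.04 for Psmb10 over Psmb7 (p = 0.80) and −0.11 for Psmb8 over Psmb5 (p = 0.85), where 100 arrangements allow no p below 0.01. The value of Psmb9 over Psmb6 was 0.09 without CD8 KO 2 and 0.29 without CD8 KO 1.

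**Figure D2:**
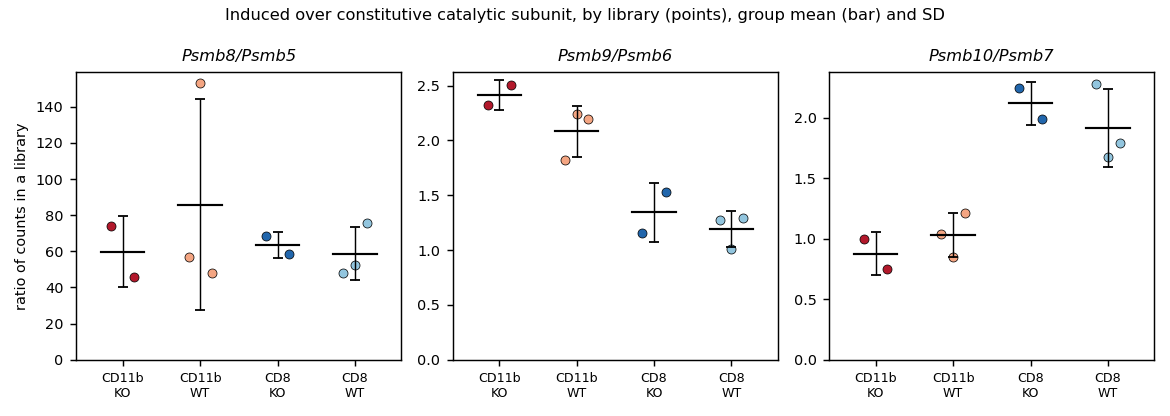
Ratio of the counts of each induced catalytic subunit to its constitutive counterpart in every library, by group, with the group mean (bar) and SD. Psmb9 over Psmb6 is 1.82 to 2.51 at the label CD11b, against 1.01 to 1.53 at the label CD8, Psmb10 over Psmb7 is 0.748 to 1.21 and 1.67 to 2.28, and Psmb8 over Psmb5 overlaps between the labels.

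Nlrc5, the transactivator that binds class I promoters through the SXY module, was also higher at the label CD11b. Nlrc5 had 356 and 325 CPM in the CD11b KO libraries, against 345, 357 and 337 CPM in CD11b WT, and 238 and 274 CPM in CD8 KO, against 214, 195 and 173 CPM in CD8 WT. The labels did not overlap, with 0.41 ± 0.12 in KO mice and 0.84 ± 0.10 in WT mice (log2 fold change ± SE, adjusted p = 0.0117 and 2.74e-07). The KO call was lost without CD11b KO 1 (0.34, adjusted p = 0.106) or CD8 KO 1 (0.31, adjusted p = 0.165).

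The 9 cross-presentation genes fell into 3 higher, 4 lower and 2 that did not pass, in both genotypes. Wdfy4, a BEACH-domain protein that mouse cDC1 need to cross-present cell-associated antigen, took the most counts of the 31. Wdfy4 had 5480 and 5784 CPM in the CD11b KO libraries, against 5905, 5375 and 5768 CPM in CD11b WT, and 2628 and 2300 CPM in CD8 KO, against 2444, 2257 and 2505 CPM in CD8 WT. The labels were far apart, with 1.19 ± 0.08 in KO mice and 1.24 ± 0.07 in WT mice (log2 fold change ± SE, adjusted p = 1.12e-10 and 9.35e-13). Rab43, a small GTPase with a role in cross-presentation by mouse cDC1, had 107 to 118 CPM in the CD11b libraries and 50.2 to 59.0 CPM in the CD8 libraries. It differed by 1.11 ± 0.13 in KO mice and 1.02 ± 0.11 in WT mice (log2 fold change ± SE, adjusted p = 5.86e-07 and 6.44e-08), although 74.2% of its 75-base windows also belong to an overlapping gene model on the same strand. Sec61a1 encodes the pore of the Sec61 channel, proposed as an exit for antigen to the cytosol. Sec61a1 had 149.9 and 174 CPM in the CD11b KO libraries, against 174, 169 and 187 CPM in CD11b WT, and 98.8 and 93.5 CPM in CD8 KO, against 80.6, 94.0 and 91.5 CPM in CD8 WT. No CD8 library reached the CD11b libraries, and the difference was 0.75 ± 0.13 in KO mice and 0.99 ± 0.11 in WT mice (log2 fold change ± SE, adjusted p = 8.19e-05 and 7.06e-08).

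Cybb and Cyba encode the gp91phox and p22phox subunits that form the membrane core of the NOX2 oxidase, which limits acidification of phagosomes. Cybb had 45.3 and 47.5 CPM in the CD11b KO libraries, against 51.8, 45.8 and 69.8 CPM in CD11b WT, and 414 and 478 CPM in CD8 KO, against 447, 494 and 441 CPM in CD8 WT. The highest CD11b library (69.8 CPM) was far below the lowest CD8 library (414 CPM), and the differences were −3.26 ± 0.16 in KO mice and −3.05 ± 0.13 in WT mice (log2 fold change ± SE, adjusted p = 3.34e-13 and 1.16e-14). Cyba had 131 and 126 CPM in the CD11b KO libraries, against 150.3, 181 and 166 CPM in CD11b WT, and 234 and 223 CPM in CD8 KO, against 249.8, 243 and 230.0 CPM in CD8 WT. Cyba was likewise lower in every CD11b library, but by less, with −0.83 ± 0.12 in KO mice and −0.54 ± 0.10 in WT mice (log2 fold change ± SE, adjusted p = 7.59e-06 and 9.63e-05). Ifi30 encodes GILT, the thiol reductase of endosomes. Ifi30 had 281 and 298 CPM in the CD11b KO libraries, against 261, 327 and 257 CPM in CD11b WT, and 563 and 515 CPM in CD8 KO, against 521, 540.5 and 501.99 CPM in CD8 WT. It differed by −0.90 ± 0.12 in KO mice and −0.89 ± 0.09 in WT mice (log2 fold change ± SE, adjusted p = 2.25e-06 and 8.1e-08), with no overlap of the labels. Lnpep encodes IRAP, an aminopeptidase that trims peptides in endosomes. Lnpep had 137 and 157 CPM in the CD11b KO libraries, against 140.4, 178 and 136 CPM in CD11b WT, and 250.2 and 238 CPM in CD8 KO, against 242, 242 and 242 CPM in CD8 WT. Its difference was −0.73 ± 0.13 in KO mice and −0.67 ± 0.11 in WT mice (log2 fold change ± SE, adjusted p = 0.000128 and 2.09e-05).

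Sec22b, a SNARE that brings reticulum components to phagosomes, lay at 17.1 to 20.4 CPM in the CD11b libraries and 16.5 to 18.9 CPM in the CD8 libraries. Rab27a, which guides the delivery of NOX2 to phagosomes, lay at 23.4 to 35.9 CPM in the CD11b libraries and 25.8 to 38.0 CPM in the CD8 libraries. Both sets of ranges overlapped and neither gene passed the test.

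**Figure D3:**
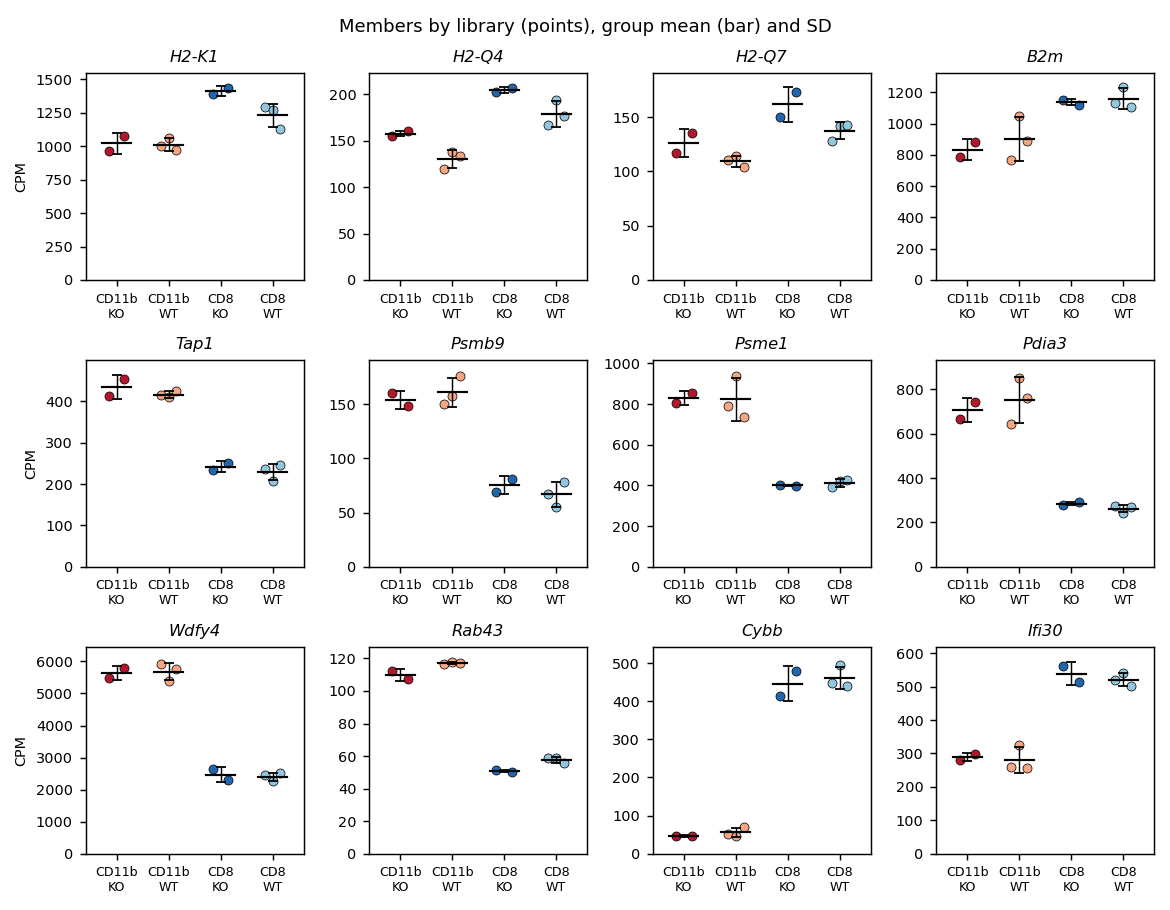
CPM of 12 members in each library (points), with the group mean (bar) and SD, for CD11b KO, CD11b WT, CD8 KO and CD8 WT from left to right; each axis starts at 0. H2-K1, H2-Q4, B2m, Cybb and Ifi30 are lower and Tap1, Psmb9, Psme1, Pdia3, Wdfy4 and Rab43 higher in every library labelled CD11b than in any labelled CD8, while H2-Q7 overlaps between CD11b KO 2 and CD8 WT 1.

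Set against exon length, B2m was the most abundant member in all 4 groups, at 969 ± 79.8 CPM per kb in CD11b KO, 1049 ± 162 in CD11b WT, 1321 ± 22.1 in CD8 KO and 1349 ± 78.8 in CD8 WT (mean ± SD, n = 2 for KO and n = 3 for WT groups). Wdfy4 ranked second at the label CD11b, at 534 ± 20.4 CPM per kb in KO and 539 ± 26.1 in WT, and Ifi30 ranked second at the label CD8, at 549 ± 34.9 in KO and 531 ± 19.6 in WT. The SDs of Wdfy4 and Calr in CD11b KO did not overlap (534 ± 20.4 and 463 ± 11.3 CPM per kb), whereas Calr and H2-D1 in the same group were within their spread (463 ± 11.3 and 457 ± 35.9). Sec22b was last in every group, at 4.51 ± 0.316 CPM per kb in CD11b KO, 4.81 ± 0.350 in CD11b WT, 4.65 ± 0.132 in CD8 KO and 4.38 ± 0.248 in CD8 WT. Cybb was 30th of 31 in CD11b KO, 29th in CD11b WT and 14th in both CD8 groups. The 31 members together took 1.53% to 1.63% of gene counts at the label CD11b, against 1.14% to 1.26% at the label CD8.

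Other genes of the pathway were followed in lists of related function. Over all genes tested, 10.3% were higher and 12.5% lower at the label CD11b in KO mice, and 13.8% and 15.7% in WT mice. Chaperones and glycan enzymes of the endoplasmic reticulum were the most one-sided, with 14 of 16 higher at the label CD11b in KO and 13 of 16 in WT mice, and 0 lower. Their median log2 fold change was 0.67 in KO and 0.79 in WT mice. Hsp90b1, which encodes the chaperone gp96, lay at 1243 to 1252 CPM in CD11b KO, 1138 to 1301 in CD11b WT, 492 to 635 in CD8 KO and 466 to 497 in CD8 WT, and differed by 1.15 ± 0.11 in KO mice and 1.32 ± 0.09 in WT mice (adjusted p = 1.99e-08 and 3.37e-11). P4hb, the protein disulfide isomerase, differed by 0.98 ± 0.10 in KO mice and 1.15 ± 0.08 in WT mice (adjusted p = 8.01e-08 and 1.17e-10). Of the 19 genes of the constitutive 20S proteasome, 5 were higher in KO and 8 in WT mice and 0 were lower, among them its assembly factor Pomp, at 1.11 ± 0.15 in KO mice and 1.13 ± 0.12 in WT mice (adjusted p = 3.18e-06 and 7.66e-08). Of 21 regulator and activator genes, 3 were higher in KO and 7 in WT mice, and 0 were lower. Of 18 genes of the dislocation machinery, 5 were higher in KO and 7 in WT mice, with 0 lower. Of 10 cytosolic peptidases 1 and 2 were higher. The counts of the peptidases, and of the regulator and activator genes in KO mice, are near the shares over all genes.

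Of the partners of Cybb and Cyba in the oxidase, 3 of 8 were lower in KO and 4 of 8 in WT mice, and 1 was higher in each. Rac2, the GTPase of the complex, differed by −1.25 ± 0.12 in KO mice and −1.20 ± 0.10 in WT mice (adjusted p = 2.19e-08 and 8.5e-10), and the proton channel Hvcn1 by −2.56 ± 0.29 in KO mice and −2.90 ± 0.24 in WT mice (adjusted p = 2.64e-07 and 1.41e-09). Among 17 transcription factors known to act on class I genes, Irf8, which cDC1 need to form, was the 1 higher at the label CD11b, at 2.31 ± 0.15 in KO mice and 2.40 ± 0.12 in WT mice (adjusted p = 3.37e-11 and 2.68e-13). In that list 7 were lower in KO and 8 in WT mice, including the NF-kappaB subunits Nfkb1, at −1.05 ± 0.10 in KO mice and −1.22 ± 0.08 in WT mice (adjusted p = 3.72e-08 and 5.36e-11), and Rela, at −0.59 ± 0.12 in KO mice and −0.60 ± 0.10 in WT mice (adjusted p = 0.0006 and 3.05e-05). Of 24 tested phagosome, SNARE and Rab genes, 7 were higher and 2 lower in KO mice, and 9 were higher and 3 lower in WT mice. Mpeg1, whose product perforin-2 forms pores in endosomes, lay at 2345 to 2637 CPM in CD11b KO, 2717 to 2934 in CD11b WT, 411 to 412 in CD8 KO and 368 to 379 in CD8 WT, with 2.60 ± 0.09 in KO mice and 2.90 ± 0.07 in WT mice (adjusted p = 1.63e-15 and 3.98e-18). The pore-forming apolipoprotein Apol7c differed by 1.24 ± 0.16 in KO mice and 1.93 ± 0.14 in WT mice (adjusted p = 2.93e-06 and 7.87e-11).

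Comparison of genotypes addresses whether loss of Atg16l1 alters the class I pathway in each population. In these libraries 0 of the 31 members passed the test at either label. At the label CD11b, 0.145% of all genes passed (21 of 14528), and 2 members had an unadjusted p under 0.05, as had 932 of the 14528 genes. At the label CD8 the share was also 0.145% (21 genes), and again 2 members had an unadjusted p under 0.05, as had 947 genes. These shares of the members are near those of all genes. The mean over both labels, which reuses the same libraries, called 0.289% of all genes and 0 members, with 5 members and 1224 genes at an unadjusted p under 0.05. The difference of the genotype effects between labels called 0.0206% of all genes and 0 members, with 2 members and 793 genes at an unadjusted p under 0.05. DESeq2 and limma-voom also called 0 members in all 4 comparisons. The members' median log2 fold change was −0.04 at the label CD11b and 0.09 at the label CD8, beside −0.01 and 0.00 over all genes.

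**Figure D4:**
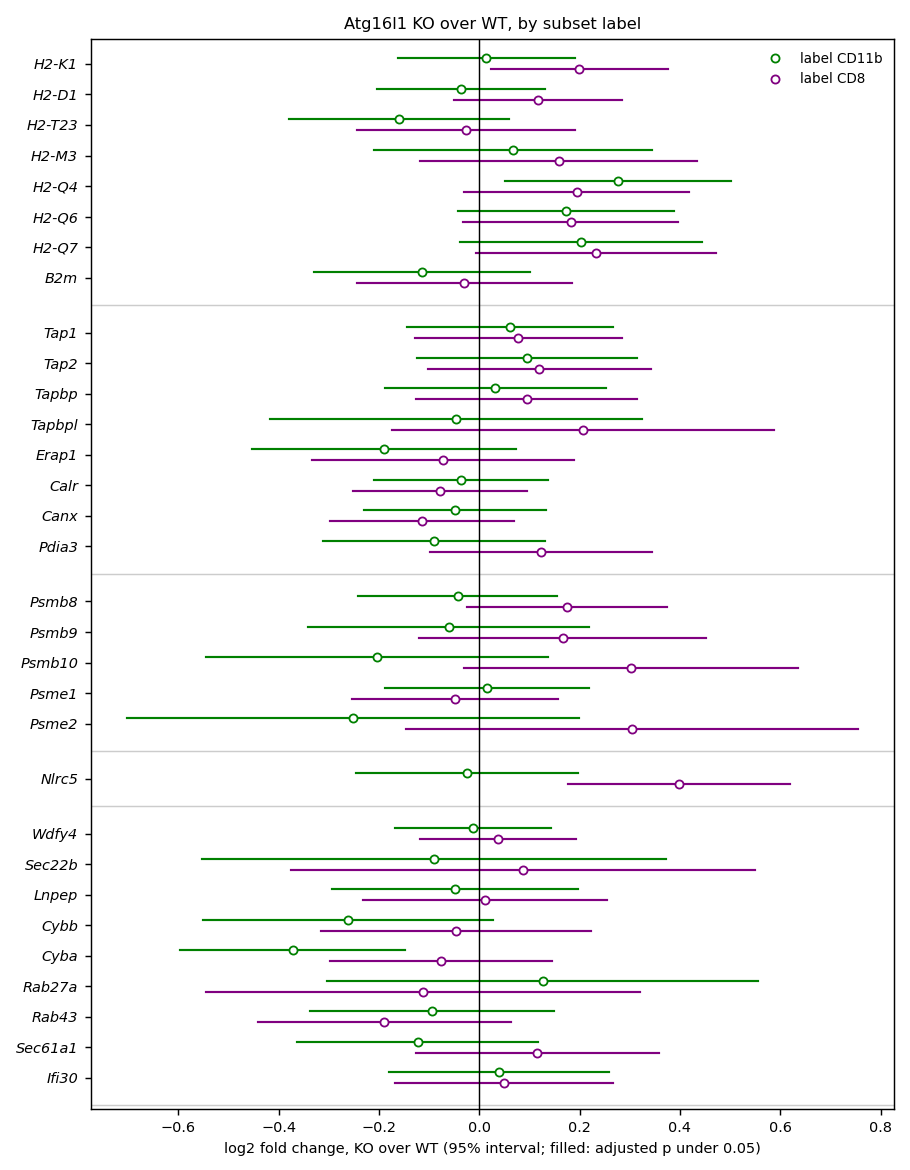
Log2 fold change of KO over WT for each member, grouped by role, with the label CD11b drawn above the label CD8. Points are estimates and bars 95% intervals; all points are open because no member had an adjusted p under 0.05, and the estimates run from −0.37 (Cyba, label CD11b) to 0.40 (Nlrc5, label CD8).

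At the label CD11b, the member with the smallest p was Cyba, whose KO libraries (131 and 126 CPM) were below the WT libraries (150.3, 181 and 166 CPM). Its log2 fold change was −0.37 ± 0.11 (SE, 95% interval −0.60 to −0.15, adjusted p = 0.393). H2-Q4 followed, with 156 and 160.1 CPM in KO libraries, against 120 to 138 CPM in WT, at 0.28 ± 0.11 (SE, 95% interval 0.05 to 0.50, adjusted p = 0.669). The next 3 were Cybb at −0.26 ± 0.14 (SE, 95% interval −0.55 to 0.03, adjusted p = 0.794), H2-Q7 at 0.20 ± 0.12 (SE, adjusted p = 0.823) and H2-Q6 at 0.17 ± 0.10 (SE, adjusted p = 0.832). Without CD11b WT 3 the value of Cybb was −0.07, and without CD11b KO 2 that of H2-Q7 was 0.09. The KO libraries of Cybb overlapped the WT libraries, while those of H2-Q6 and H2-Q7 lay above all 3 WT libraries.

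At the label CD8, Nlrc5 had the smallest p, with 238 and 274 CPM in KO libraries, against 214.5, 195 and 173 CPM in WT libraries. Its log2 fold change was 0.40 ± 0.11 (SE, 95% interval 0.18 to 0.62, adjusted p = 0.210). H2-K1 had 1388 and 1437 CPM in KO, against 1130 to 1293 CPM in WT, at 0.20 ± 0.08 (SE, 95% interval 0.02 to 0.38, adjusted p = 0.673). Then came H2-Q7 at 0.23 ± 0.12 (SE, adjusted p = 0.768), Psmb10 at 0.30 ± 0.16 (SE, adjusted p = 0.804) and Psmb8 at 0.17 ± 0.10 (SE, adjusted p = 0.825), each with both KO libraries above all 3 WT libraries. H2-Q7 was at 0.13 without CD8 KO 2, and Psmb10 at 0.20 without CD8 WT 2. The library CD8 KO 2 had a summed B cell marker level of 2356 CPM and CD8 KO 1 of 826 CPM, against 363 to 924 CPM in the CD8 WT libraries, and all 10 markers had counts. Macrophage markers summed to 438 and 451 CPM in CD8 KO, against 266 to 357 CPM in CD8 WT. Their part in these values was not tested. Without CD8 KO 2 the difference of Nlrc5 was 0.30 and that of H2-K1 was 0.18, and without CD8 KO 1 they were 0.50 and 0.22.

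At the label CD11b, 8 of the 31 members had KO libraries all on 1 side of the WT libraries, 3 above (H2-Q4, H2-Q6 and H2-Q7) and 5 below (H2-T23, Psmb10, Psme2, Cyba and Rab43), where 20.5% of all genes were so separated. At the label CD8, 12 were, with 10 above (H2-K1, H2-D1, H2-M3, H2-Q4, H2-Q7, Tap2, Pdia3, Psmb8, Psmb10 and Nlrc5) and 2 below (Canx and Rab43), where 24% of all genes were. On the same side at both labels were 3 members, H2-Q4 and H2-Q7 above and Rab43 below, where 3.32% of all genes were. H2-Q4 had a log2 fold change of 0.24 ± 0.08 (SE, 95% interval 0.08 to 0.39, adjusted p = 0.331) at the mean of both labels, H2-Q7 of 0.22 ± 0.08 (SE, adjusted p = 0.447) and H2-Q6 of 0.18 ± 0.07 (SE, adjusted p = 0.515). Cyba, at −0.22 ± 0.08 (SE, adjusted p = 0.362), and Nlrc5, at 0.19 ± 0.08 (SE, adjusted p = 0.505), completed the 5 with the smallest p. H2-Q6 and H2-Q7 share stretches of sequence, so their values may not be independent.

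The test of the difference between labels ranked Nlrc5 first, at −0.42 ± 0.15 (SE, 95% interval −0.74 to −0.11, adjusted p = 0.859), followed by Psmb10 at −0.51 ± 0.23 (SE, 95% interval −0.98 to −0.03, adjusted p = 0.867). Cyba at −0.30 ± 0.15 (SE, adjusted p = 0.929), Psme2 at −0.56 ± 0.31 (SE, adjusted p = 0.942) and Psmb8 at −0.22 ± 0.14 (SE, adjusted p = 0.946) came next, so no member was shown to respond differently at the 2 labels. The value of Psme2 was −0.19 without CD8 KO 1 and −0.85 without CD8 KO 2. Abundant members had narrower 95% intervals of the KO over WT log2 fold change: Wdfy4 had −0.17 to 0.14 in CD11b libraries and −0.12 to 0.19 in CD8 libraries, and Tap1 had −0.14 to 0.27 in CD11b and −0.13 to 0.28 in CD8 libraries. B2m had −0.33 to 0.10 in CD11b and −0.24 to 0.18 in CD8 libraries. Less abundant members left wider ones, such as −0.55 to 0.37 at the label CD11b for Sec22b.

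By position, 12 of the 31 members lie between 33915899 and 37274484 of chromosome 17 (GRCm38), in the MHC, and their genotype estimates are given here as a description. At the mean of both labels 11 of the 12 had a positive KO over WT estimate (median 0.09), against 8 of the 19 elsewhere (median −0.00), with 0 called in each. At the label CD11b 8 of the 12 were positive (median 0.05), against 3 of the 19 (median −0.09). At the label CD8 11 of the 12 were (median 0.16), against 10 of the 19 (median 0.01). The share of all genes with a positive estimate was not counted, and members that share sequence may not be independent. In edgeR's fit 0 genes of the 11 related lists were called between KO and WT at either label. At most 4 members of a list had an unadjusted p under 0.05. These were 4 of the 11 class II genes at the label CD11b, where 932 of all 14528 genes had such a p. At the mean of both labels, 11 of the 11 class II genes had a negative estimate and 0 were called. The share of all genes with a negative estimate was not counted either.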

How the data were processed

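Total RNA was sequenced with a stranded kit for small inputs, per the labels' protocols, and aligned with STAR 2.5.0a to GRCm38, per the submitters' processing notes; the annotation release is not given in the sources used here. The authors deposited raw read counts per gene (53379 genes a library) in an unstranded and 2 stranded columns; the stranded column with the larger sum was used (9467704 to 13768884 counts a library). Reads given to no gene on that strand (33.1% to 41.4%) or to several genes (0.473% to 0.561%) stayed out. Of the gene identifiers, 53274 were found in GENCODE. The 31 members, the related lists, the tests and the rule for naming genes (every member; fold changes for members called and for the 5 with the smallest p in each genotype comparison; at most 3 genes a related list) were chosen with earlier results of these data known; 1 gene that the rule names is not reported here.

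CPM used TMM-scaled library sizes. edgeR 4.0.16 (R 4.3.3) fitted 4 group means to all 10 libraries after filterByExpr (14528 genes), with P-values adjusted by Benjamini-Hochberg over all genes in a comparison and called under 0.05; 95% intervals and SE come from that fit. The model was tested on simulated counts. Ratios of subunits were tested by exact permutation in Python 3.11.15 (SciPy 1.17.1). Alternatives were limma-voom (limma 3.58.1), DESeq2 1.42.0, RLE size factors, other filters, unstranded counts, totals without mitochondrial or rRNA genes, the compared libraries alone, replicate blocks, and leaving out single libraries with the genes tested kept. Shared 75-base windows were counted over GENCODE transcripts; promoter windows were aligned with Biopython 1.88 without end gap costs, a scoring chosen after a more permissive one had been seen. Libraries are from individual mice, but intervals cover only the spread between these libraries.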

Additional observations from a re-analysis of the deposited data

Results flagged for a closer look

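Psmb10, the induced subunit of the trypsin-like proteasome site, had KO libraries on opposite sides of the WT libraries at the 2 labels. At the label CD11b both KO libraries (40.77 and 33.3 CPM) were below all 3 WT libraries (40.85, 42.2 and 44.9 CPM). At the label CD8 both KO libraries (56.7 and 57.6 CPM) were above all 3 WT libraries (53.4, 39.2 and 46.6 CPM). CD11b KO 1 (40.77 CPM) and CD11b WT 1 (40.85 CPM) nearly met. Over all genes tested, 20.5% at the label CD11b and 24% at the label CD8 had KO libraries all on 1 side of the WT libraries. The share on opposite sides at the 2 labels was not counted. The KO effect at the label CD11b minus that at the label CD8 was −0.507 on the log2 scale (SE 0.23, unadjusted p = 0.0385) and did not pass edgeR's test over all genes (adjusted p = 0.867).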

How the results depend on the processing

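In KO over WT comparisons 0 members were called under every alternative run. The number called between labels was 19 to 24 in KO and 22 to 24 in WT mice over all alternatives, and 20 in KO mice when CD11b WT 1 and CD8 KO 2 were both left out, a choice made after seeing the data. Of 1403 alternative estimates of 68 reported member values, 1367 kept their sign and side of the threshold, 36 (10 values, all between labels) lost a call, and 0 changed sign. The ratio Psmb8 over Psmb5, CD11b minus CD8, was −0.13 to 0.30 when each library was left out in turn. For KO minus WT, leaving out each library gave −0.28 to 0.15 for Psmb8 over Psmb5 and −0.15 to 0.0635 for Psmb10 over Psmb7; the cause of these changes of sign was not tested. Over all genes, DESeq2 called more than edgeR: 42 against 21 at the label CD11b, 54 against 21 at the label CD8, 91 against 42 at the mean of both labels and 11 against 3 for the difference. limma-voom called 63 at the label CD8, a fit to the compared libraries alone 78 there, and no filter on low counts 71 at the label CD11b and 142 at the label CD8. With no filter the mean of both labels had 175 and the difference 41, and unstranded counts gave 6 for the difference. Leaving out CD8 KO 2 left 7 at the label CD8 and 17 at the mean of both labels, against 53 at the label CD8 without CD8 KO 1 and 77 at the mean without CD11b WT 2. The difference had 3 to 8 with single libraries left out, and the label CD8 had 32 without CD11b WT 1. Same-numbered libraries of a genotype had deviations correlated at 0.018 to 0.049, positive in all 5 pairs but under the 0.1 set for treating numbers as pairs (the 2 KO pairs hold the same value by construction). Pairs of different genotypes, which are different mice, reached 0.0594 (CD11b KO 1 with CD11b WT 1) and −0.0594 (CD11b KO 2 with CD11b WT 1). Whether same-numbered libraries share a mouse is not stated. A block for the number moved the all-gene count for the difference from 3 to 8, or to 28 with numbers kept within genotype, and that at the label CD11b from 21 to 29. With a replicate block, 24 members were called between labels in each genotype and 0 between KO and WT. Groups of 2 and 3 libraries limit the precision, and a p above the threshold does not show equal levels.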

Other observations

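Further class I-like genes and the class II genes showed no common direction between the labels. Over all genes tested, 10.3% were higher and 12.5% lower at the label CD11b in KO mice, and 13.8% and 15.7% in WT mice. Of 15 tested class I-like genes (24 listed), 4 were higher and 2 lower at the label CD11b in KO mice, and 5 were higher and 2 lower in WT mice. Procr, which encodes the endothelial protein C receptor, differed by 1.98 ± 0.25 in KO mice and 2.27 ± 0.21 in WT mice (log2 fold change ± SE, adjusted p = 1.4e-06 and 6.1e-09), Cd1d1, which presents lipids to NKT cells, by 1.54 ± 0.24 in KO mice and 2.24 ± 0.21 in WT mice (adjusted p = 3.3e-05 and 7.0e-09), and Fcgrt, the neonatal Fc receptor that pairs with B2m, by 1.07 ± 0.17 in KO mice and 1.14 ± 0.14 in WT mice (adjusted p = 3.9e-05 and 7.3e-07). Among 11 class II genes, 2 were higher and 3 lower in KO mice and 3 were higher and 3 lower in WT mice. H2-DMb2, which encodes a subunit of the peptide exchanger, was at −1.77 ± 0.14 in KO mice and −2.02 ± 0.11 in WT mice (adjusted p = 5.4e-10 and 1.1e-12). H2-DMb1, which also encodes a subunit of that exchanger, went the other way in WT mice, at 0.79 ± 0.10 (adjusted p = 5.3e-07). It lay at 203 to 204 CPM in CD11b KO, against 129 to 132 CPM in CD8 KO. A list of receptors tied to uptake of cross-presented antigen, which also holds a chemokine receptor, split as 6 higher and 5 lower of 13 in KO mice and 6 higher and 7 lower in WT mice. Clec9a, which binds actin of dead cells, differed by 4.41 ± 0.17 in KO mice and 4.13 ± 0.14 in WT mice (adjusted p = 1.4e-14 and 4.0e-16). It is also among the cDC1 markers summed above, so its direction is not a separate result.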
